A study of Mus musculus with 27 samples.

Results

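Igf2, its relative Igf1, the 2 receptors that bind them and 6 IGF-binding proteins form the gene family described here. The 10 genes were chosen by name, as the rows of the mouse count tables that carry these symbols, out of 52636 gene identifiers. Each of the 10 symbols matched 1 identifier, and all 10 genes had a level of 1 CPM (read counts made relative to normalized library size) or more in all libraries. The rule uses no measured value, although earlier results of these data were known when the family was picked.

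RNA was sequenced from frontal cortex and striatum of adult mice about 2.5 months old on the 129S1 background, of both sexes. Igf2enh-/- mice are homozygous for the loss of a 4920 bp stretch of DNA between H19 and Igf2 that was removed in embryonic stem cells. A later cross to Hprt-CRE females took out the selection cassette and left 1 loxP site, and the deletion is constitutive, not limited to a cell type. Frontal cortex gave 6 wild-type and 6 Igf2enh-/- libraries, with 3 of each sex per genotype. Striatum gave 7 wild-type libraries (3 from females, 4 from males) and 8 Igf2enh-/- libraries (4 of each sex). These 13 wild-type and 14 Igf2enh-/- libraries follow the sample labels, whereas the series' design text gives 14 and 13. Libraries are named by the number in their label, and the labels do not say which libraries of the 2 regions came from 1 mouse.

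IGF2 and IGF1 are small secreted relatives of insulin that signal growth and survival through the tyrosine kinase receptor encoded by Igf1r. The receptor encoded by Igf2r carries mannose 6-phosphate-tagged enzymes to lysosomes and also takes up IGF2 and delivers it for breakdown, so it does not signal in the way that Igf1r does. Binding proteins hold secreted IGFs in the extracellular space and are cut by proteases that free the ligand. Igf2 is imprinted and read from the paternal chromosome in most tissues, and in the adult brain its known sources include the meninges, the choroid plexus and blood vessels.

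The removed fragment spans chr7:149796331-149801250 in NCBIM37, 35423 bp from the nearer, 3′ end of Igf2 and 51471 bp from its furthest annotated start. H19 lies on its other side, at a distance of 32283 bp. The outer 60 bases at each end of the fragment are shown because they bound the DNA that the mutant lacks. Both are on the plus strand, and no base is in capitals.
start of the fragment, chr7:149796331-149796390: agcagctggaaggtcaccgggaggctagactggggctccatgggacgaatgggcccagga
end of the fragment, chr7:149801191-149801250: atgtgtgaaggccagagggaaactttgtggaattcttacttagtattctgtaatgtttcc

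Igf2 has 4 RefSeq start windows within chr7:142650768-142666816 of GRCm38, on the minus strand. The counts sum over the gene and do not say which start was used, so the 100 bases before each start are shown as the possible promoters behind the Igf2 values. They are read 5′ to 3′ on the minus strand from RefSeq (GRCm38.p6), in order from the furthest upstream, and the capitals mark GGGCGG or its reverse complement CCGCCC, the core of a GC box.
Igf2 start 1, chr7:142666817-142666916: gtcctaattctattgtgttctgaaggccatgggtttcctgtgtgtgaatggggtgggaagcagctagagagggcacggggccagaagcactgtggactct
Igf2 start 2, chr7:142661272-142661371: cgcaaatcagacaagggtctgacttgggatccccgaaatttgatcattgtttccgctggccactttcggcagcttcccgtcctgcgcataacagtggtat
Igf2 start 3, chr7:142658805-142658904: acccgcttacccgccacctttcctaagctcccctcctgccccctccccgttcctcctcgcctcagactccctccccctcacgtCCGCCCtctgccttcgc
Igf2 start 4, chr7:142657497-142657596: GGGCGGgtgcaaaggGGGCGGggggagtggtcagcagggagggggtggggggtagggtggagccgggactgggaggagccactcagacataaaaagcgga

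Start 3 holds 1 such core and start 4 holds 2, and starts 1 and 2 hold none. Of 32851 mouse windows of this kind, 24.7% have the core on either strand within the 100 bases. Neither TATAAA (in 5.56% of windows) nor CCAAT (18.9%), each searched on both strands, occurs before any Igf2 start. Of the other members, Igf2r and Igfbp7 hold 3 cores, Igf1r holds 2, and the first of the 2 Igfbp2 starts holds 2. Over the full 300 bases around each start, the GC content is 64.7% and 63.3% at Igf2 starts 3 and 4 and 52.3% and 49.7% at starts 1 and 2, against a median of 52.7% over all windows. These matches describe the letters of the reference sequence.

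Libraries held 23686945 to 33926904 gene counts. All 13 libraries labelled female had more Xist than any male library, and all 14 labelled male had more Ddx3y than any female one. Frontal cortex libraries summed to 2062 to 2284 CPM over 6 markers of cortical projection neurons, while striatal libraries ranged from 31.5 CPM in wild-type library 22 to 1065 CPM in wild-type library 20. Over 7 markers of medium spiny neurons, the striatal libraries had 2878 to 7935 CPM, lowest in library 20, and the frontal cortex libraries at most 186.9 CPM. Libraries 20 and 15 stood apart. Library 20 was at the extremes of both neuronal lists, as given. In Igf2enh-/- striatal library 15, from a female, 18 choroid plexus markers summed to 4789 CPM, where every other striatal library had 174.5 to 375.4 CPM. Ttr, which encodes the transthyretin secreted by choroid plexus, was at 3050 CPM there and at 6.33 to 35.0 CPM in wild-type striatum. Enpp2, another of the 18, was at 141.7 to 317.8 CPM in wild-type striatum. It was at 226.3 to 261.6 CPM in wild-type frontal cortex, where Ttr was at most 0.292 CPM, so the lower sums do not measure choroid plexus alone. The main results that rest on library 15 or 20 are given with and without it. Exceptions are the correlations with cortical markers and the fits with a meningeal or choroid plexus term, which keep both. The mean levels of Igf2 by sex also keep library 15.

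Of the 2 ligands, Igf2 transcripts were more abundant in Igf2enh-/- than in wild-type mice in both regions, and the difference passed the test in frontal cortex. Wild-type frontal cortex libraries ran from 51.9 to 107.1 CPM with a median of 71.3 CPM. The Igf2enh-/- libraries ran from 88.3 to 173.0 CPM with a median of 119.1 CPM, so 5 of the 6 lay above every wild-type library. This is a fold of 1.70, or 0.77 on the log2 scale with a standard error of 0.134, and the p of edgeR's quasi-likelihood test, adjusted by Benjamini-Hochberg over all genes, was 0.0285. Igf2 was the only one of the 10 members called in frontal cortex. Among 13936 genes tested there, 0.129% were called higher and 0.251% lower in the mutant. No member had genotype groups free of overlap in frontal cortex, as 1.29% of all genes did. The call rests on few libraries: the log2 fold change lay between 0.68 and 0.87 when each library was left out, and the adjusted p rose above 0.05 in 7 of the 12 fits, to at most 0.0776, when wild-type library 4, 6, 8, 10 or 12 or Igf2enh-/- library 9 or 11 was left out. Under the other alternatives the adjusted p ranged from 2.98e-12 with no filter to 0.0627 without sex in the model.

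In striatum, Igf2 ranged from 34.1 to 44.0 CPM in wild-type libraries, with a median of 37.0 CPM, and from 46.0 to 258.8 CPM in Igf2enh-/- libraries, with a median of 51.8 CPM. The 8 Igf2enh-/- libraries all lay above the 7 wild-type libraries, a separation that 0.202% of genes showed. Library 15 had 4.20 times as much Igf2 as the next library, which was at 61.7 CPM. With it, the difference on the log2 scale was 0.89 (standard error 0.326) and the adjusted p 0.386. Leaving library 15 out lowered the difference to 0.46 (standard error 0.0600) and the adjusted p to 0.00899, with Igf2enh-/- libraries at 52.5 ± 5.57 CPM (SD, n = 7) and wild-type libraries at 38.2 ± 3.82 CPM (SD, n = 7). None of the 10 members was called for genotype in striatum with library 15 kept, by edgeR's quasi-likelihood or likelihood ratio test, DESeq2 or limma-voom. By the quasi-likelihood test 3 members had an unadjusted p under 0.05 in striatum, beside 10.1% of all genes, and 3 in frontal cortex, beside 13.5%. Of 13875 genes tested in striatum, 0% were called higher and 0.0360% lower. The median log2 fold change for genotype over the 10 members was 0.06 in frontal cortex and 0.10 in striatum, against 0.00 and 0.00 over all genes tested.

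Females had more Igf2 than males in each of the 4 groups on average, with library 15 among the striatal females. In frontal cortex the mean was 83.2 CPM in wild-type females and 62.3 CPM in wild-type males, and 137.1 and 109.6 CPM in Igf2enh-/- females and males (n = 3 each). The sex term itself, -0.37 for males against females (standard error 0.133), had an unadjusted p of 0.0147 and an adjusted p of 0.568. The genotype effect did not differ detectably between sexes, with a difference of 0.10 (standard error 0.274, adjusted p = 0.951) in frontal cortex. In striatum this difference was -0.93 (standard error 0.611, unadjusted p = 0.15) with library 15 and 0.00952 (standard error 0.126) without it. The striatal value thus rests on that library.

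Markers of meningeal fibroblasts moved with Igf2 among frontal cortex libraries. Over 20 such markers, among them Col1a2, a fibrillar collagen, and Fmod, a small collagen-binding proteoglycan, the summed level was 124.0 to 288.7 CPM in wild-type and 175.1 to 275.8 CPM in Igf2enh-/- frontal cortex, and no marker was at 0 in every library of either group. Across the 12 libraries, log2 Igf2 followed the mean log2 level of these markers with Pearson's r = 0.82 (permutation p = 0.00129, adjusted over 20 relations 0.0086) and Spearman's rho = 0.818 (permutation p = 0.00175, adjusted 0.0175). Without the 2 libraries furthest from the median marker level r was 0.854, and within a genotype it was 0.983 in wild-type and 0.829 in Igf2enh-/- libraries. With the meningeal mean as a term in the model, the Igf2 difference between genotypes was 0.57 (standard error 0.0769, adjusted p = 0.0152) in frontal cortex and 0.58 (standard error 0.0898, adjusted p = 0.042) in striatum. In striatum the markers summed to 48.0 to 61.2 CPM in wild-type libraries, 52.8 to 58.0 CPM in 7 of the Igf2enh-/- libraries and 123.0 CPM in library 15. By these sums the striatal meningeal term mainly sets library 15 apart, and it was not fitted without that library. In bulk tissue, more cells of a type and more RNA per cell cannot be told apart.

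**Figure D1:**
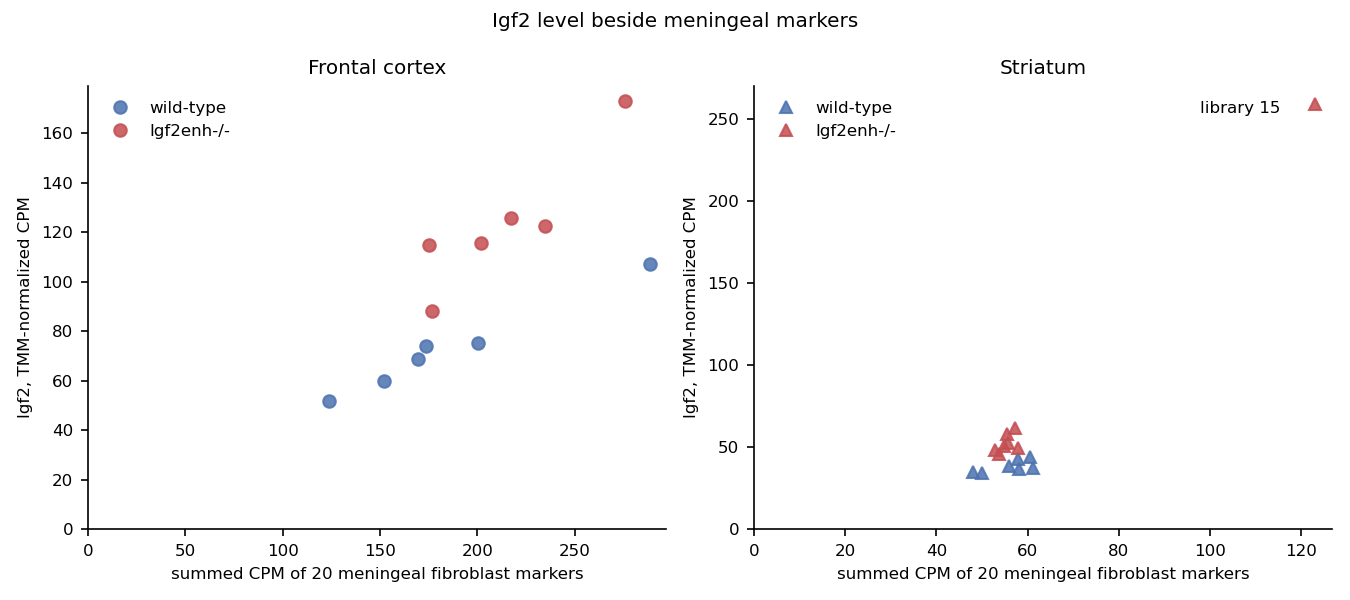
Igf2 level (TMM-normalized CPM, vertical axis) against the summed CPM of 20 meningeal fibroblast markers (horizontal axis), 1 point per library, for 6 wild-type and 6 Igf2enh-/- frontal cortex libraries (left) and 7 wild-type and 8 Igf2enh-/- striatal libraries (right). In frontal cortex Igf2 rose from 51.9 to 173.0 CPM along with the markers in both genotypes, and in striatum library 15 (258.8 CPM) lies far from the rest.

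Igf2 was lower in striatum than in frontal cortex of wild-type mice, by 0.89 on the log2 scale (log2 fold change -0.89, standard error 0.112, adjusted p = 1.88e-05), and the 2 groups did not overlap. In Igf2enh-/- mice the striatal difference was -0.75 (standard error 0.327, adjusted p = 0.0534) with library 15 and -1.21 (adjusted p = 2.39e-07) without it. The meningeal sum was also lower in striatum, with all wild-type striatal libraries below all frontal cortex libraries, so the region and the meningeal level cannot be told apart here. Genotype effects on Igf2 in the 2 regions differed by 0.14 (striatum minus frontal cortex, standard error 0.389, adjusted p = 1.0), and by -0.31 without library 15 (adjusted p = 0.999).

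Igf1, the ligand made by neurons and microglia in the adult brain, did not pass the test for genotype in either region. In frontal cortex it ranged from 13.5 to 17.0 CPM (median 14.7 CPM) in wild-type libraries and from 15.1 to 18.6 CPM (median 16.6 CPM) in Igf2enh-/- libraries. These groups overlapped, and the log2 fold change of 0.15 (standard error 0.0667) had an adjusted p of 0.340. In striatum the ranges were 2.73 to 8.38 CPM in wild-type and 2.67 to 7.25 CPM in Igf2enh-/- libraries, with medians of 3.96 and 4.36 CPM and a log2 fold change of 0.05 (standard error 0.235, adjusted p = 0.963). Region separated Igf1 completely. Striatum minus frontal cortex was -1.70 (standard error 0.235, adjusted p = 4.03e-05) on the log2 scale in wild-type mice and -1.82 (standard error 0.139, adjusted p = 2.91e-08) in Igf2enh-/- mice.

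Per kilobase of exon, Igf2 exceeded Igf1 in every library. The ratio of the 2 levels per kilobase averaged 8.77 ± 1.99 (SD, n = 6) in wild-type and 13.4 ± 2.58 (SD, n = 6) in Igf2enh-/- frontal cortex. In striatum it ran from 7.35 to 27.8 in wild-type libraries and from 12.7 to 113 in Igf2enh-/- libraries, with library 15 at the top.

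**Figure D2:**
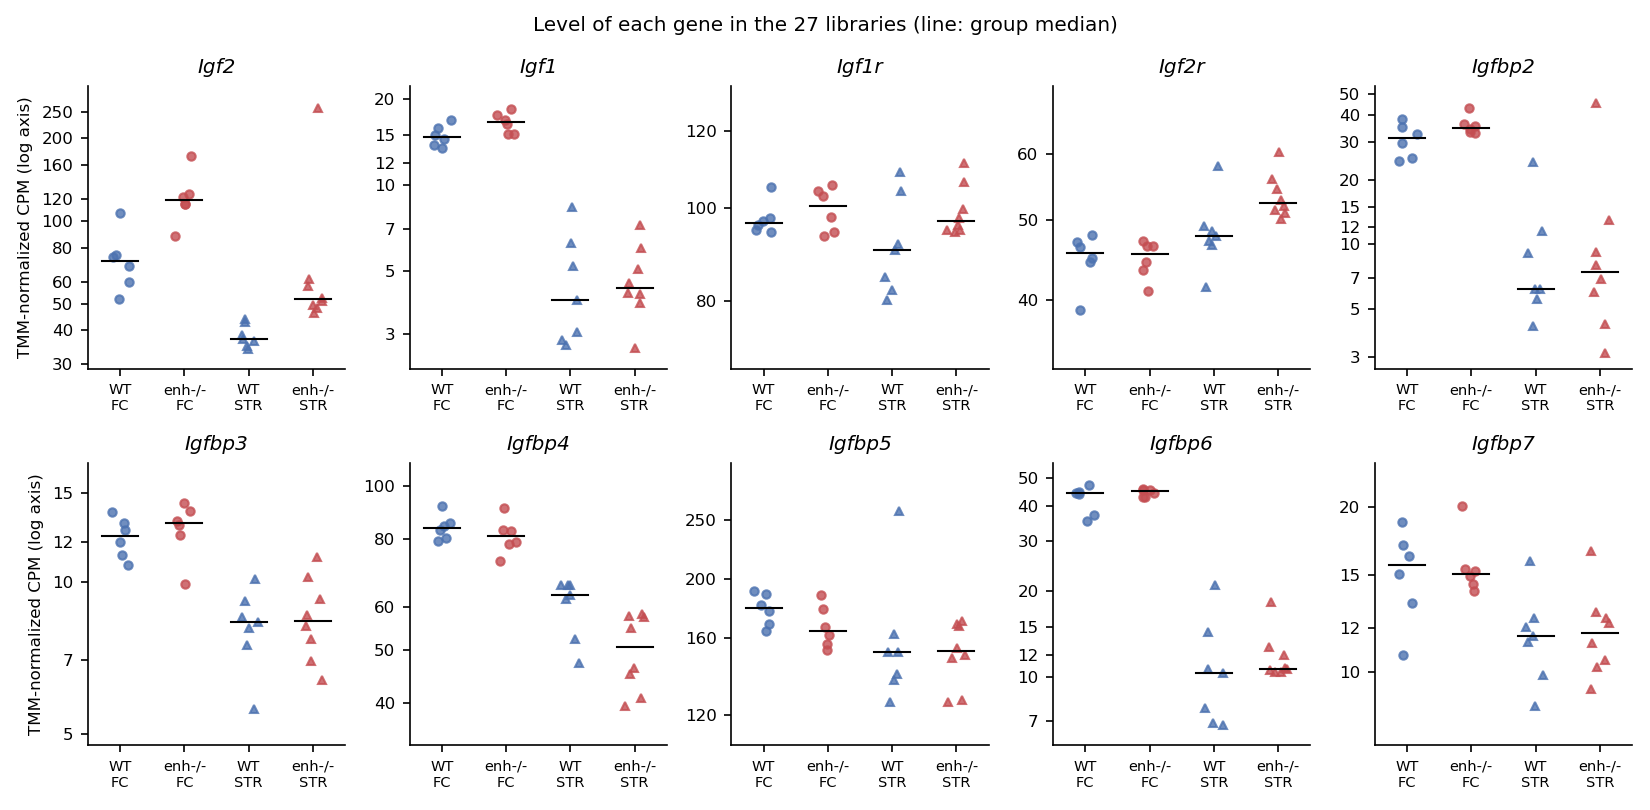
Level of the 10 genes (TMM-normalized CPM, log axis, a separate scale per panel) in each of the 27 libraries: wild-type and Igf2enh-/- (enh-/-) frontal cortex (FC, circles) and striatum (STR, triangles), with the group median as a line. Igf2 lies higher in Igf2enh-/- libraries in both regions, and Igf1, Igfbp2 and Igfbp6 lie lower in striatum than in frontal cortex, apart from Igfbp2 in library 15. There Igfbp2 (45.6 CPM) lies above every frontal cortex library. In library 20 Igfbp2 (24.2 CPM) lies just under the lowest frontal cortex library (24.4 CPM).

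Neither receptor transcript was called for genotype. Igf1r, at chr7:67952257-68233668 of GRCm38 and the signalling receptor of both ligands, varied least of the 10 genes in wild-type frontal cortex, with a coefficient of variation of 4.02% (94.4 to 105.1 CPM, median 96.5 CPM), and a like one in Igf2enh-/- frontal cortex (93.5 to 105.4 CPM, median 100.4 CPM). Mutant over wild-type gave a log2 fold change of 0.03 (standard error 0.0397), with an approximate 95% interval from -0.0474 to 0.108. The intervals given here use the normal distribution, so with few libraries they are somewhat too narrow. In striatum Igf1r spanned 80.2 to 108.9 CPM in wild-type and 94.4 to 111.3 CPM in Igf2enh-/- libraries, a difference of 0.12 (standard error 0.0646, adjusted p = 0.558). It also did not pass between regions, at -0.09 (standard error 0.0671, adjusted p = 0.252) in wild-type and -0.00 (standard error 0.0457, adjusted p = 0.950) in Igf2enh-/- mice.

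Igf2r, at chr17:12682406-12769706, stood at 39.0 to 48.0 CPM (median 45.6 CPM) in wild-type and 41.0 to 47.1 CPM (median 45.5 CPM) in Igf2enh-/- frontal cortex. There the groups overlapped throughout, at -0.00 on the log2 scale (standard error 0.0493), with an approximate 95% interval from -0.0996 to 0.0935. In striatum it ranged from 41.6 to 58.2 CPM in wild-type libraries (median 47.8 CPM) and from 50.1 to 60.5 CPM in Igf2enh-/- libraries (median 52.4 CPM). All but 1 of the wild-type libraries lay below every Igf2enh-/- library. This difference of 0.15 on the log2 scale (standard error 0.0609) had an unadjusted p of 0.0298 and an adjusted p of 0.444. Igf2r was the only member called higher in striatum, and this was in Igf2enh-/- mice, at 0.26 (standard error 0.0471, adjusted p = 0.000202), with no overlap between regions. In wild-type mice the same comparison gave 0.11 (standard error 0.0687, adjusted p = 0.182). The difference between these 2 values, 0.15 (standard error 0.0833), had an unadjusted p of 0.0884 and an adjusted p of 1.0, so the regional effect was not shown to differ between genotypes.

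Airn, the long RNA antisense to Igf2r that takes part in its imprinting, had 4 to 22 counts per library, and Igf2as, antisense to Igf2, had 1 to 12. Whether reads were counted by strand is not given in the sources used here. Per kilobase, the level of Igf2 was 2.79 ± 0.737 times that of Igf2r (SD, n = 6) in wild-type frontal cortex and 4.74 ± 1.15 times (SD, n = 6) in Igf2enh-/- frontal cortex. In striatum the median ratio was 1.38 in wild-type and 1.72 in Igf2enh-/- libraries.

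**Figure D3:**
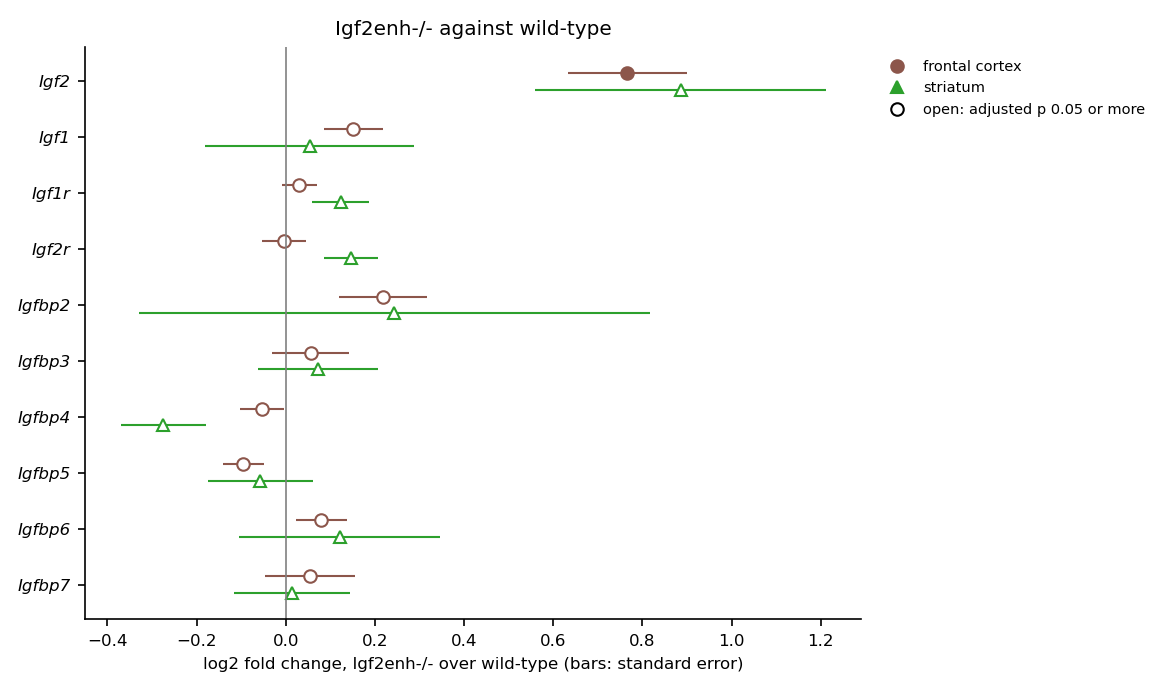
Log2 fold change of each gene, Igf2enh-/- over wild-type (horizontal axis), in frontal cortex (circles, 6 against 6 libraries) and striatum (triangles, 8 against 7), with standard errors as bars. Filled symbols had an adjusted p under 0.05, which was the case only for Igf2 in frontal cortex (0.77).

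None of the 6 binding proteins was called for genotype in either region. Igfbp2, the most abundant IGF-binding protein of cerebrospinal fluid, ran from 24.4 to 38.3 CPM (median 31.3 CPM) in wild-type and from 33.0 to 43.4 CPM (median 35.0 CPM) in Igf2enh-/- frontal cortex. The difference of 0.22 (standard error 0.0986) had a p of 0.0434 before and 0.353 after adjustment. In striatum its level ranged from 4.19 to 24.2 CPM in wild-type libraries and from 3.11 to 45.6 CPM in Igf2enh-/- libraries, the highest being libraries 20 and 15. Its genotype difference of 0.24 (standard error 0.573, adjusted p = 0.930) became -0.40 (adjusted p = 0.823) without library 15, so its sign rests on that library.

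Igfbp4, a binding protein that blocks IGF action until it is cleaved by pregnancy-associated plasma protein A, did not pass for genotype in striatum, where its difference was negative. Wild-type striatal libraries had 47.3 to 65.9 CPM (median 63.0 CPM) and Igf2enh-/- libraries 39.4 to 58.3 CPM (median 50.7 CPM), with 4 of the 8 below every wild-type library. The difference was -0.27 on the log2 scale (standard error 0.0953), with an unadjusted p of 0.0114 and an adjusted p of 0.364, and it lay between -0.33 and -0.24 when each library was left out. In frontal cortex the ranges were 79.3 to 91.9 CPM and 72.9 to 91.1 CPM, and the change of -0.05 (standard error 0.0503) had an adjusted p of 0.687. The difference between regions, -0.22 (standard error 0.124), had an unadjusted p of 0.0831 and did not pass.

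Igfbp5, a matrix-bound member and the one of highest CPM, had 164.5 to 191.4 CPM in wild-type and 153.3 to 188.7 CPM in Igf2enh-/- frontal cortex (log2 fold change -0.10, standard error 0.0455, adjusted p = 0.381). In striatum the medians were 151.8 and 152.3 CPM, and wild-type library 20 stood at 258.9 CPM against at most 162.9 CPM in the other 6 wild-type libraries. Igfbp2 and Igfbp5 are neighbours on chromosome 1, at chr1:72824480-72852474 on the plus strand and chr1:72858065-72874865 on the minus strand of GRCm38.

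Igfbp3, the main carrier of IGFs in serum, Igfbp6, which prefers IGF2 over IGF1, and Igfbp7, a vascular protein that binds IGFs weakly, differed between genotypes by 0.01 to 0.12 on the log2 scale, with adjusted p values from 0.568 to 0.984. Igfbp3 stood at 9.88 to 14.3 CPM over all frontal cortex libraries. Igfbp6 had 35.4 to 47.3 CPM in wild-type and 43.0 to 45.8 CPM in Igf2enh-/- frontal cortex. Igfbp7 ranged from 10.7 to 18.8 CPM and from 14.1 to 20.1 CPM in these 2 groups.

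The order of the family was set by level per kilobase of exon. In wild-type frontal cortex Igfbp6 led (38.0 ± 4.25 CPM per kilobase, SD, n = 6), followed by Igfbp4 (35.6 ± 1.91) with overlapping ranges, and then by Igfbp5 (29.8 ± 1.78) and Igf1r (21.8 ± 0.876), each clear of the next. Igfbp2 (16.8 ± 2.99), Igf2 (13.2 ± 3.46) and Igfbp7 (12.5 ± 2.35) overlapped. Igf2r (4.76 ± 0.340), Igfbp3 (3.91 ± 0.352) and Igf1 (1.51 ± 0.130) came last. Igfbp3 and then Igf1 closed the order of means in all 4 groups, whereas the order of Igfbp2 and Igf2r in striatum rested on library 20 or 15. With all libraries the mean of Igfbp2 was the higher of the pair there, although it exceeded Igf2r in only 2 of 7 wild-type and 2 of 8 Igf2enh-/- libraries. Without library 20 Igfbp2 averaged 3.87 ± 1.46 and Igf2r 5.25 ± 0.455 CPM per kilobase (SD, n = 6) in wild-type striatum, and without library 15 they averaged 3.91 ± 1.80 and 5.66 ± 0.386 (SD, n = 7) in Igf2enh-/- striatum. Igf2 took rank 6 in both wild-type groups and rank 4 in Igf2enh-/- frontal cortex, where it overlapped Igf1r. In Igf2enh-/- striatum it took rank 4 with library 15 and rank 5 without it, where its mean of 9.55 CPM per kilobase lay behind that of Igfbp6, 11.0 CPM per kilobase (n = 7). Wild-type striatum was led by Igfbp5 (26.8 ± 7.45, n = 7) and Igfbp4 (25.5 ± 3.15), which overlapped, and Igfbp6 stood there at 10.0 ± 4.61. Exon lengths are those of GENCODE vM1, an older annotation than the vM15 used for counting.

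Between regions, the family was mostly lower in striatum. In wild-type mice 7 of 10 members were called lower and 0 higher, beside 31.6% of 13554 genes called lower and 33.8% called higher, and 6 members had groups that did not overlap, as 37.7% of all genes did. In Igf2enh-/- mice 6 members were called lower and 1 higher, beside 34.1% and 34.0% of 13595 genes, and 4 had groups free of overlap, beside 42.0% of all genes. The median log2 fold change of the 10 members was -0.53 in wild-type and -0.64 in Igf2enh-/- mice, against 0.02 and 0.00 over all genes tested.

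Among the members, Igfbp6 differed most between regions with all libraries kept, and its order with Igfbp2 changed with library 15. The wild-type median of Igfbp6 was 44.3 CPM in frontal cortex and 10.3 CPM in striatum (range 6.79 to 21.1 CPM). Its Igf2enh-/- medians were 44.9 and 10.7 CPM (striatal range 10.4 to 18.4 CPM). These are log2 fold changes of -1.91 (standard error 0.237, adjusted p = 1.64e-05) and -1.89 (standard error 0.104, adjusted p = 1.3e-09). Igfbp2 was at -1.72 (standard error 0.348, adjusted p = 0.000757) in wild-type mice, beside -1.70 for Igf1. In Igf2enh-/- mice Igfbp2 was at -1.65 (standard error 0.447, adjusted p = 0.00421), behind Igf1 at -1.82. Without library 15 this value of Igfbp2 became -2.33, beside -1.87 for Igfbp6 in the same fit. Without library 20 the wild-type values were -2.12 for Igfbp2 and -2.17 for Igfbp6.

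Igfbp4 was lower in striatum by 0.47 in wild-type (log2 fold change -0.47, adjusted p = 5.59e-05) and by 0.70 in Igf2enh-/- mice (log2 fold change -0.70, adjusted p = 1.01e-05). Igfbp3 was likewise lower in both (log2 fold changes -0.59 and -0.57, adjusted p = 0.00018 and 0.000505). Of the members called lower, Igfbp7 had the smallest difference, -0.35 (adjusted p = 0.0404) in wild-type and -0.40 (adjusted p = 0.00371) in Igf2enh-/- mice. The wild-type call for Igfbp7 was lost in 9 of the 13 fits that left out 1 library and reached an adjusted p of 0.00127 without library 20. Igfbp5 did not pass in wild-type mice, at -0.17 (adjusted p = 0.245), but was -0.31 (adjusted p = 0.000263) without library 20, and in Igf2enh-/- mice it was -0.15 (adjusted p = 0.0558).

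**Figure D4:**
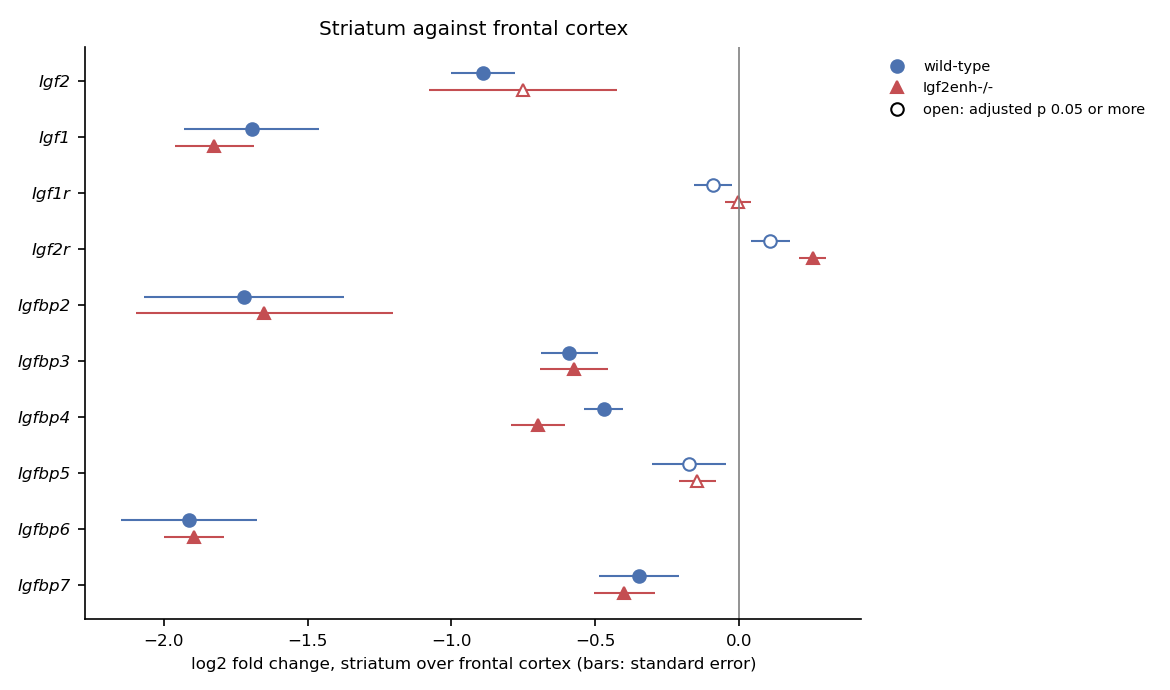
Log2 fold change of each gene, striatum over frontal cortex (horizontal axis), in wild-type (circles, 7 against 6 libraries) and Igf2enh-/- mice (triangles, 8 against 6), with standard errors as bars and filled symbols for an adjusted p under 0.05. Igf1, Igfbp2 and Igfbp6 lie between -1.65 and -1.91, and Igf2r is the only filled symbol above 0 (0.26, Igf2enh-/- mice).

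Levels of 3 members within striatum followed the markers of cortical projection neurons, for which Slc17a7, the vesicular glutamate transporter of cortical neurons, ranged from 13.6 to 749.8 CPM among wild-type striatal libraries. Across the 15 striatal libraries, log2 Igf1 followed the mean log2 level of the 6 cortical markers with Pearson's r = 0.904 (permutation p = 4e-05, adjusted 0.0008) and Spearman's rho = 0.946 (permutation p = 1e-05, the smallest these permutations can give, adjusted 0.0002). For Igfbp6 r was 0.833 (permutation p = 0.0002, adjusted 0.002) and rho 0.707 (permutation p = 0.00389, adjusted 0.0194). Without the 2 libraries furthest from the median marker level, 14 and 22, r was 0.934 for Igf1 and 0.784 for Igfbp6. Library 20, with the highest cortical marker sum, was kept in, and no value without it is given. Within a genotype r was 0.918 and 0.953 for Igf1 in wild-type and Igf2enh-/- libraries, and 0.866 and 0.689 for Igfbp6. In wild-type library 20 the medium spiny neuron markers were lowest, as given above.

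For Igfbp2 the ranks followed the cortical markers (rho = 0.718, permutation p = 0.0034, adjusted 0.0194) while Pearson's r of 0.492 did not pass (permutation p = 0.0613, adjusted 0.154), with library 15 far off the line. Of the other 7 members, none passed the adjustment by either measure, and Igf2 had r = -0.03 (permutation p = 0.908, adjusted 0.908) and rho = -0.154 (permutation p = 0.586, adjusted 0.739). In frontal cortex, Igf2 was the only member whose relation to the meningeal markers passed among the 10. These relations were computed after the spread of the markers had been seen, and the adjustment does not cover the choice of marker lists. The part of cortical RNA in the regional or genotype differences was not tested. A fit for genotype in striatum with the cortical mean as a term was added after seeing the data. Such a term does not separate tissue composition from expression. In that fit Igf2 was at 0.90 (adjusted p = 0.201), Igfbp4 at -0.30 (adjusted p = 0.124) and Igf2r at 0.15 (adjusted p = 0.234). In the same fit without library 15, Igf2 was at 0.47 (adjusted p = 0.00454).

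**Figure D5:**
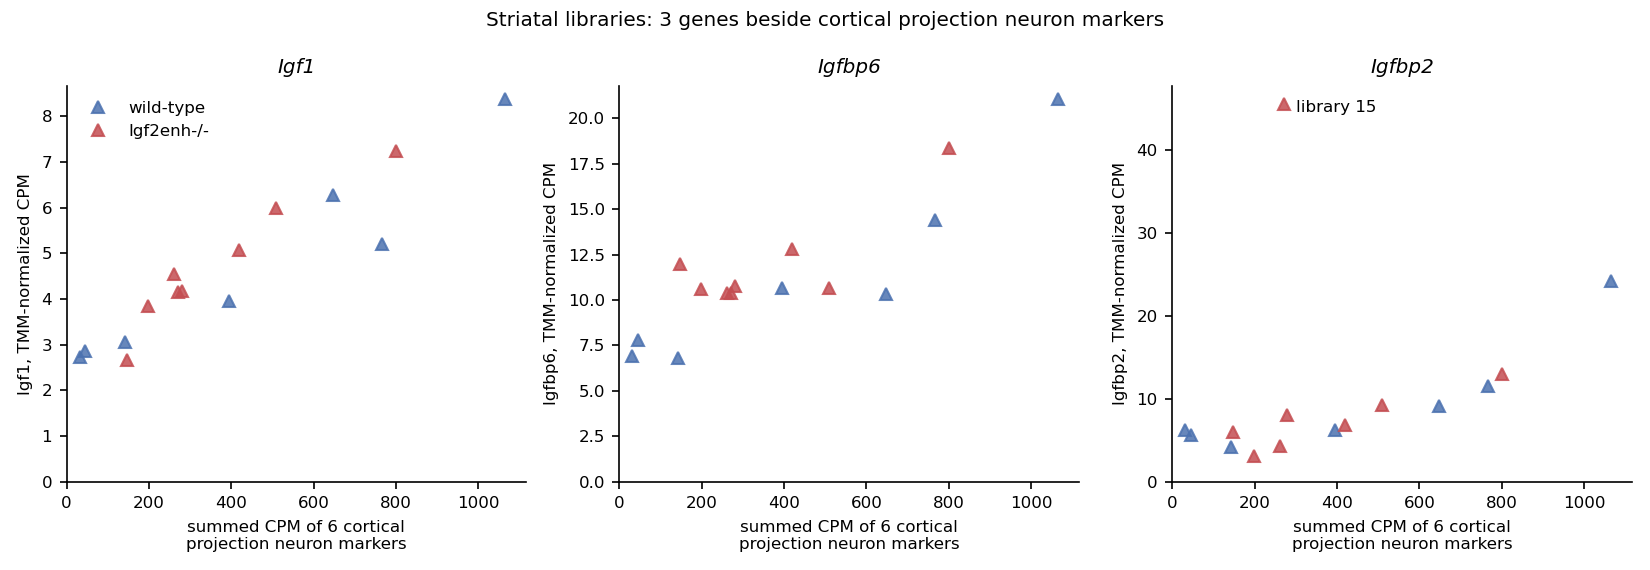
Levels of Igf1, Igfbp6 and Igfbp2 (TMM-normalized CPM, vertical axes) against the summed CPM of 6 cortical projection neuron markers (horizontal axis) in the 7 wild-type and 8 Igf2enh-/- striatal libraries, 1 point each. All 3 are highest in the libraries with most cortical marker RNA, up to 8.38 CPM for Igf1 and 21.1 CPM for Igfbp6 in wild-type library 20, apart from Igfbp2 in library 15 (45.6 CPM).

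The genes whose level was most like that of Igf2 were ranked by Pearson's correlation of log2 CPM after subtracting each group's mean, among 12710 other named genes with at least 1 CPM in all 27 libraries. These values are given without a test, since the libraries share tissue composition and 1 library can set them. Over 27 libraries the 10 most alike were Msx1 (r = 0.935), Gpx8, Pcolce, Slc13a4, Cgnl1, Abca4, Pla2g5, Kl, Slc2a12 and Myof (r = 0.866). Without library 15 they were Pcolce (r = 0.815), Stab1, Col3a1, Slc6a13, Gjb2, Bmp6, Cp, Dcn, Serpinf1 and Col1a1 (r = 0.786), and only Pcolce was in both sets. Col3a1, Slc6a13, Gjb2, Dcn and Col1a1 of the second set belong to the meningeal list, as does Slc13a4 of the first, and Kl is on the choroid plexus list. The 13 meningeal markers that passed the filter had a median r with Igf2 of 0.694 over 27 libraries and 0.738 without library 15, against -0.02 and -0.00 for all genes. The 2 choroid plexus markers that passed it had 0.816 and 0.106, the 11 pericyte and smooth muscle markers 0.297 and 0.475, and the 12 endothelial markers 0.154 and 0.206.

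Among the other members, Igfbp2 was nearest to Igf2 over 27 libraries (r = 0.625), but its r fell to 0.03 without library 15. Igfbp7 had r = 0.473 with and 0.22 without that library, and Igfbp5 had the most negative value, -0.22 and -0.41. Igf1 had r = -0.12 in both sets. The nearest genes to the other members had higher values that did not rest on library 15 for Igf1 and Igfbp6, among others. Igf1 was most like Efr3a (r = 0.956), Dlgap1, which encodes a postsynaptic scaffold protein, and Ctps2, with and without library 15. Igfbp6 was most like Pip5k1c (r = 0.952), a kinase that makes the phosphoinositide used at synapses, Pip4k2c and, over 27 libraries, 1110008P14Rik.

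For Igfbp2 the nearest genes were Il1r1 (r = 0.904), Ctsd and Slc4a2 over 27 libraries and Rnd1 (r = 0.934), D16H22S680E and Tmem108 without library 15. Igf1r was nearest to 9430015G10Rik (r = 0.842), Sfswap and Igsf9b, and to the same genes without library 15. Igf2r was nearest to Ncoa6 (r = 0.868), Dido1 and Smchd1, and without library 15 to Fry (r = 0.902), Ncoa6 and Dido1. Over 27 libraries Igfbp3 was nearest to Gen1 (r = 0.755), Erlin2 and Bcl2l1, Igfbp4 to Abtb1 (r = 0.774), Ttc38 and Ctxn1, and Igfbp5 to Arap2 (r = 0.863), Arhgap42 and Phf20l1. Gen1, Abtb1 and Arap2 stayed nearest without library 15 (r = 0.796, 0.799 and 0.87). Igfbp7 was nearest to Tmco4 (r = 0.824), Hmg20b and Fuca1, and without library 15 to Acsbg1 (r = 0.894), Aldh1l1, an astrocyte marker, and Lcat.

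The wider pathway was followed in 60 other genes in 6 lists. None of the 48 tested in frontal cortex and none of the 49 tested in striatum was called for genotype by edgeR's quasi-likelihood test or limma-voom, while 5 and 4 of them had an unadjusted p under 0.05, as did 13.5% and 10.1% of all genes tested. The likelihood ratio test and DESeq2 called 1 of them in frontal cortex, Rheb, and none in striatum. With no filter, 3 were called in frontal cortex (Foxo3, Htra1 and Igfbpl1), and with the cortical term 1 was called in striatum (Pik3r2). Rheb, the GTPase that switches on mTOR complex 1, came nearest to a call in frontal cortex, at 0.14 on the log2 scale (standard error 0.0329, adjusted p = 0.0839), and stood at 0.14 (standard error 0.0549, adjusted p = 0.421) in striatum. In frontal cortex it was followed by Foxo3 (-0.20, adjusted p = 0.14), a transcription factor restrained by AKT, and Htra1 (0.27, adjusted p = 0.165), a secreted protease that can cut binding proteins. In striatum the smallest p belonged to Akt1 (-0.11, adjusted p = 0.278) and Shc2 (-0.15, adjusted p = 0.294), a kinase and an adaptor downstream of the receptor. No tested gene of these lists differed by more than 0.302 on the log2 scale in either region.

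Of the 7 other insulin and IGF family genes, only Insr was tested in all 4 comparisons. Ins1 had 0 counts in every library, Ins2 at most 17, Igfals, which completes the serum IGF complex, at most 1, and Igfbp1 at most 7. Of the 3 IGF2 mRNA-binding proteins, Igf2bp1 had at most 8 counts and Igf2bp3 at most 5, and Igf2bp2 was tested only for genotype in striatum, at -0.15 on the log2 scale (adjusted p = 0.747). Insr, the insulin receptor, was higher in striatum than in frontal cortex by 0.17 in wild-type and 0.20 in Igf2enh-/- mice on the log2 scale (adjusted p = 0.00128 and 0.00169), with medians of 52.4 and 51.6 CPM in frontal cortex and 58.6 and 58.4 CPM in striatum.

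Between regions, 34 of 47 tested pathway genes were called in wild-type mice (19 higher and 15 lower in striatum) and 31 of 46 in Igf2enh-/- mice (17 higher and 14 lower), beside the shares of all genes given above. Called in the same direction in both genotypes were 6 of the 10 members and 58.9% of the 13414 genes tested in both. Of the 3 genes of the protease list tested in both, Stc1, which encodes stanniocalcin, an inhibitor of the protease that cleaves Igfbp4, was called higher in striatum in both genotypes (log2 fold changes 0.99 and 1.07). Pappa, the gene of that protease, had at most 20 counts in a library and was not tested. Among receptor substrates and adaptors, 6 of the 11 tested were called in the same direction in both genotypes. Gab1 was higher by 1.12 in both, and Sos2 by 0.17 and 0.16. Lower in striatum were Irs1, a docking protein of the insulin and IGF1 receptors, by 1.04 in both (log2 fold changes -1.04), Irs2 by 0.55 in both (-0.55), and Grb2 (-0.18 and -0.16).

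Of the PI3K, AKT, mTOR and FOXO genes, 17 of 26 (65.4%) were called the same way in both genotypes, beside the 58.9% of all genes given above. Foxo1, a transcription factor that AKT keeps out of the nucleus, had the largest difference, from medians of 25.4 and 23.5 CPM in wild-type and Igf2enh-/- frontal cortex to 180.9 and 190.1 CPM in striatum (log2 fold changes 2.74 and 2.84). Foxo4 (0.58 and 0.45) and Foxo6 (1.42 and 1.22) were also higher in striatum, while Rheb (-0.50 and -0.51) and Rptor, a subunit of mTOR complex 1 (-0.32 and -0.33), were lower. Of the 5 mannose 6-phosphate sorting genes, Sort1 was lower (-0.38 and -0.30), and Gnptg (0.31 and 0.20) and M6pr (0.14 and 0.13), the other mannose 6-phosphate receptor beside Igf2r, were higher. All of these named differences passed in both genotypes, with adjusted p values of at most 0.0206.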

How the data were processed

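The deposited tables hold raw read counts per gene for 27 libraries of ribosome-depleted total RNA, read as 75 bp single ends. The authors trimmed with Trim Galore 0.5.0, aligned with STAR to GRCm38 with GENCODE vM15 and counted, and the strand setting is not given in the sources used here. The tables held 0 columns of other samples. A gene entered a comparison where all of its libraries reached 1 CPM, and counts were TMM-normalized and tested with edgeR 4.0.16 (quasi-likelihood F-test, sex as a term, Benjamini-Hochberg over all genes, threshold 0.05). Alternatives used DESeq2 1.42.0, limma 3.58.1, other scalings, filters and terms, and each library left out. Levels in the text are TMM-normalized CPM over all 27 libraries, and log2 levels add 0.5 CPM. Permutation tests used 100000 resamples, were two-sided and shuffled all libraries of a region without regard to genotype or sex. P-values measure the spread between libraries, and region comparisons treat libraries as independent. Positions and start windows are RefSeq's (GRCm38.p6), and 32688 of 52636 identifiers had a symbol.

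The 10 members and all lists were chosen with earlier results of these data known. Named pathway genes are those called for genotype and, for region, up to 5 per list of smallest p called in both genotypes, and beside these the genes of smallest p for genotype, chosen after their values were seen. The study's human samples and protein measurements were not used here.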

Additional observations from a re-analysis of the deposited data

Results flagged for a closer look

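Within each of 40 gene and group combinations, 7 libraries stood further from their neighbour than Dixon's test allows on the log2 scale, where chance alone flags about 1 in 20. Igf2 in Igf2enh-/- striatum had 258.8 CPM in library 15 against 61.7 CPM in the next library, a gap of 0.831 of the group's range. In wild-type frontal cortex, Igf1r was high in library 10 (105.1 against 97.6 CPM, 0.683 of the range) and Igf2r low in library 6 (39.0 against 44.5 CPM, 0.642). In Igf2enh-/- frontal cortex, library 5 was high for both Igfbp2 (43.4 against 36.4 CPM, 0.645) and Igfbp7 (20.1 against 15.4 CPM, 0.742). In striatum, Igfbp5 was high in wild-type library 20 (258.9 against 162.9 CPM, 0.644), and Igfbp6 in Igf2enh-/- library 23 (18.4 against 12.8 CPM, 0.636), which also had the highest cortical marker sum of its group (801.2 CPM). No member's genotype effect differed between regions or sexes at an adjusted p under 0.05 or an unadjusted p under 0.05 in edgeR's quasi-likelihood test.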

How the results depend on the processing

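No paired analysis was possible because the groups share no replicate numbers. In frontal cortex 53 genes were called for genotype, against 232 by the likelihood ratio test, 242 by DESeq2, 459 with no filter, 9 with the meningeal term and 8 to 96 with 1 library left out. Igf2 was the 1 member called, and 0 were called without the sex term, where its difference was 0.76, while 0 to 1 were called with 1 library left out (Igf2 at 0.68 to 0.87). In striatum the 5 calls became 56 by the likelihood ratio test, 112 by DESeq2, 13 with filterByExpr, 10 with no filter, 3 by limma-voom, without sex or with the choroid plexus term, 3 to 8 with 1 library left out, and, with terms added after seeing the data, 69 with the cortical term and 49 with that term and library 15 left out. Members called there were 0, against 1 (Igf2) with the meningeal term (0.58) and with the cortical term without library 15 (0.47), and 0 to 1 with 1 library left out (Igf2 at 0.46 to 0.96).

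Between regions, the 8861 wild-type calls became 15 with the meningeal and 1319 with the choroid plexus term (8383 to 9408 with 1 library left out), and the 7 members called became 0 and 1 (6 to 8). The 9259 Igf2enh-/- calls became 1666 with the meningeal term (8896 to 9319), and the 7 members called became 2 (7 to 8). Since that term nearly coincides with region, the 2 cannot be told apart.

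Signs changed in striatum for genotype with the meningeal term (Igfbp2 -0.26, Igfbp7 -0.0206), the choroid plexus term (Igfbp2 -0.33, Igfbp7 -0.0325) and the cortical term without library 15 (Igf1 -0.000435, Igfbp2 -0.45, Igfbp3 -0.0302, Igfbp7 -0.0659). For region in wild-type mice they changed with the meningeal term (Igf2 0.30, Igf1r 0.14) and the choroid plexus term (Igf2r -0.0959), and in Igf2enh-/- mice with the meningeal term (Igf2 2.70, Igfbp2 2.32, Igfbp3 0.355, Igfbp7 0.0518) and, for Igf1r, with total-count scaling (0.0214), no filter (0.00664) and the choroid plexus term (0.0217). The cause was not tested.

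With 1 library left out, values of both signs were found for genotype in frontal cortex in Igf2r (-0.0399 to 0.0297) and Igfbp7 (-0.0167 to 0.112), and in striatum in Igf1 (-0.0642 to 0.219), Igfbp2 (-0.396 to 0.683), Igfbp3 (-0.0153 to 0.140), Igfbp5 (-0.107 to 0.0685) and Igfbp7 (-0.055 to 0.116), for region in Igf2enh-/- mice in Igf1r (-0.029 to 0.0166), and for the sex difference of the genotype effect in frontal cortex in Igf2 (-0.123 to 0.30) and Igfbp2 (-0.087 to 0.268). Without library 15 the region by genotype differences of Igf2 (-0.31), Igfbp2 (-0.611) and Igfbp3 (-0.0669) and the striatal genotype by sex difference of Igf2 (0.00952) changed sign. Of the members' log2 fold changes for genotype or region under the other alternatives, leaving out those with no adjusted p from DESeq2, 375 kept their sign and side of the threshold, 17 lost and 7 gained a call with the same sign, 4 lost and 1 gained a call with the sign changed, and 13 changed sign alone.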
